A study of Mus musculus with 6 samples.

Results

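Imprinted loci of the mouse genome were examined for oxidised cytosines in E14 cells, a line of male embryonic stem cells. There were 8 of them: Peg3, Snrpn, Mest, Peg10, Gnas, Igf2r, Grb10 and Plagl1. They were chosen by name and by fixed bounds on the mm9 build. The rule uses no measured value, but earlier results of these data were known when the loci were chosen. The 8 loci span 477 kb and held 6508 of the 20807838 nuclear cytosines listed for 5-hydroxymethylcytosine (5hmC) and 2070 of the 6246187 listed for 5-formylcytosine (5fC). The study read both marks at single bases with Pvu-Seal-seq, in which the enzyme PvuRts1I cuts DNA near a modified cytosine and tagged fragments are captured. The cells were grown on gelatin with LIF, and the labels name no treatment and no genetic change. Of the 6 libraries in the labels, 4 came from cells at passage 14 (2 technical replicates for each mark) and 2, both for 5hmC, from cells at passage 12. The files give each mark 1 pooled count of reads at each cytosine they list, so no value has a replicate error and no test could be run. All intervals are at the 95% level and cover counting error only. Those of read ratios treat reads without molecular identifiers as independent. Those of densities and shares treat listed cytosines or CGs as independent. Listed cytosines were clustered along the loci, so these intervals may be too narrow.

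An imprinted gene is expressed mainly from the copy inherited from one parent. At each of these loci a control region acquires CG methylation in the oocyte and keeps it on the maternal chromosome after fertilisation, where the zinc finger protein ZFP57 binds a methylated hexamer and helps to hold it against demethylation. TET enzymes oxidise 5-methylcytosine to 5hmC and then to 5fC, which thymine DNA glycosylase can remove. Both marks thus show where methylated cytosine has been oxidised. The counts do not separate parental copies, and the sources used here do not give the bounds of the control regions, so no listed cytosine was assigned to a parent or to a control region.

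Among the promoter sequences that could be placed in these loci, the share of CGs listed differed widely. Of the 8 genes, 7 had a promoter in the RefSeq table (GRCm38.p6, all but Peg10), with 16 distinct sequences of 300 bases from 250 before to 50 after a start. A sequence was placed on mm9 only where the positions, dinucleotides and strands of listed cytosines fitted its letters at a single best offset. This gave 6 starts in 5 loci. With promoters of other chromosomes tried in the same loci, the firm rule placed 7 of 6132 (0.114%). The looser rule that places Peg3 was set after its score was seen and passed 73 of them (1.19%), so the Peg3 position is less firm. Both percentages are per sequence tried in a locus, and several sequences were tried in most loci. The highest score among promoters of other chromosomes, 36.0, exceeded that of the Gnas start, 32.6, so the Gnas position is also less sure. The Mest main start scored too low for both rules. It was placed because its best offset lay as far from the Mest upstream start as in RefSeq. That rule was not tried on promoters of other chromosomes. The 250 bases before each start follow, 5′ to 3′ along the gene, with a CG in capitals where either of its cytosines was listed for either mark.
Peg3, chr7:6683131-6683380, minus strand: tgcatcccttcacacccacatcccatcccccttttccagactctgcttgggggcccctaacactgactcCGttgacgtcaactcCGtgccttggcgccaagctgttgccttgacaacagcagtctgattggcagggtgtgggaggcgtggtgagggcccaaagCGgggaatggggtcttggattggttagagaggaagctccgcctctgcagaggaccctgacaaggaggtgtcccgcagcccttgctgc
Mest upstream start, chr6:30683256-30683505, plus strand: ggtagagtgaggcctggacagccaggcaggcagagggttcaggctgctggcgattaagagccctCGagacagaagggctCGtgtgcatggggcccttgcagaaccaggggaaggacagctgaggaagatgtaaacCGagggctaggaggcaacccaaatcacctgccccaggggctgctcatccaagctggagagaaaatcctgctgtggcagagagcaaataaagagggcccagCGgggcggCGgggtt
Mest main start, chr6:30687800-30688049, plus strand: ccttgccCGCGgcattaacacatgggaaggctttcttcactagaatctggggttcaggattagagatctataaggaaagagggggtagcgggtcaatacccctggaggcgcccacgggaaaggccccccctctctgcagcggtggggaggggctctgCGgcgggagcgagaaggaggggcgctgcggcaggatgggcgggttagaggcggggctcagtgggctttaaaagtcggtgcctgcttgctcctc
Gnas most upstream start, chr2:174109571-174109820, plus strand: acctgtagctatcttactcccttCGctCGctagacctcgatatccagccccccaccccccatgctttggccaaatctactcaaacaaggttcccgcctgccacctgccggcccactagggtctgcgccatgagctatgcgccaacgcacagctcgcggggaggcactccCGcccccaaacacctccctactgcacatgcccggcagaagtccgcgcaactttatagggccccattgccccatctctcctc
Igf2r, chr17:12962573-12962822, minus strand: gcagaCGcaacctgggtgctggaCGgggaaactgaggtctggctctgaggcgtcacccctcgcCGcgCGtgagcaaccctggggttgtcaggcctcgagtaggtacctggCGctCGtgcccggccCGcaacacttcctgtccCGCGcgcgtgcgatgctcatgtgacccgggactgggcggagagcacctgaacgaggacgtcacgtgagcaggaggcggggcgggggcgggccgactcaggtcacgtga
Grb10 downstream start, chr11:11927975-11928224, minus strand: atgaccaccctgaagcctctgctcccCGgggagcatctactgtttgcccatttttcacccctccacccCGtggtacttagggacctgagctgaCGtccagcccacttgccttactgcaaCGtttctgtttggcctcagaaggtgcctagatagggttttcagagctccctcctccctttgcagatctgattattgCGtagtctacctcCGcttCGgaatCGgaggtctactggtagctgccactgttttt
All 8 CGs before the Grb10 downstream start were listed, against 9 of 27 before Igf2r and 3 of 14 before the Mest main start. At Mest the upstream sequence had 5 of 7 listed. A sequence without listed cytosines cannot be placed, so these counts do not describe all promoters of the loci.

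Together the loci were richer in both marks than the chromosomes that carry them. Their 83343 5hmC reads lay at 13.6 sites per kb and their 33589 5fC reads at 4.34 sites per kb. Relative to the rest of each locus's own chromosome the density was 1.44 for 5hmC (interval 1.41 to 1.48) and 1.41 for 5fC (1.35 to 1.47). Against all nuclear chromosomes the same densities were 1.69 and 1.79. In bins of 1 kb, 466 of 477 bins (97.7%) held a listed 5hmC cytosine, where 82.8% of bins of the nuclear genome did. For 5fC the count was 349 of 477 (73.2%), against 48.6% of all bins. The loci are gene regions chosen by name, and their CG content was not matched to the rest of the genome, so the part of CG content in these differences was not tested.

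The 8 loci differed among themselves. By 5hmC density over the own chromosome the order was Mest (2.33), Peg10 (2.03), Gnas (1.81), Igf2r (1.70), Plagl1 (1.53), Peg3 (1.52), Grb10 (1.11) and Snrpn (0.389). Neighbours in this order had overlapping counting intervals as far as Peg3, while Grb10 (1.06 to 1.17) lay below the interval of Peg3 (1.37 to 1.68) and Snrpn (0.321 to 0.466) below that of Grb10. By this measure 7 loci exceeded their chromosome in 5hmC, and Snrpn fell short of it. All the same, each locus lay between the 5th and 95th percentile of equal-length tiles of its own chromosome for both marks.

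**Figure D1:**
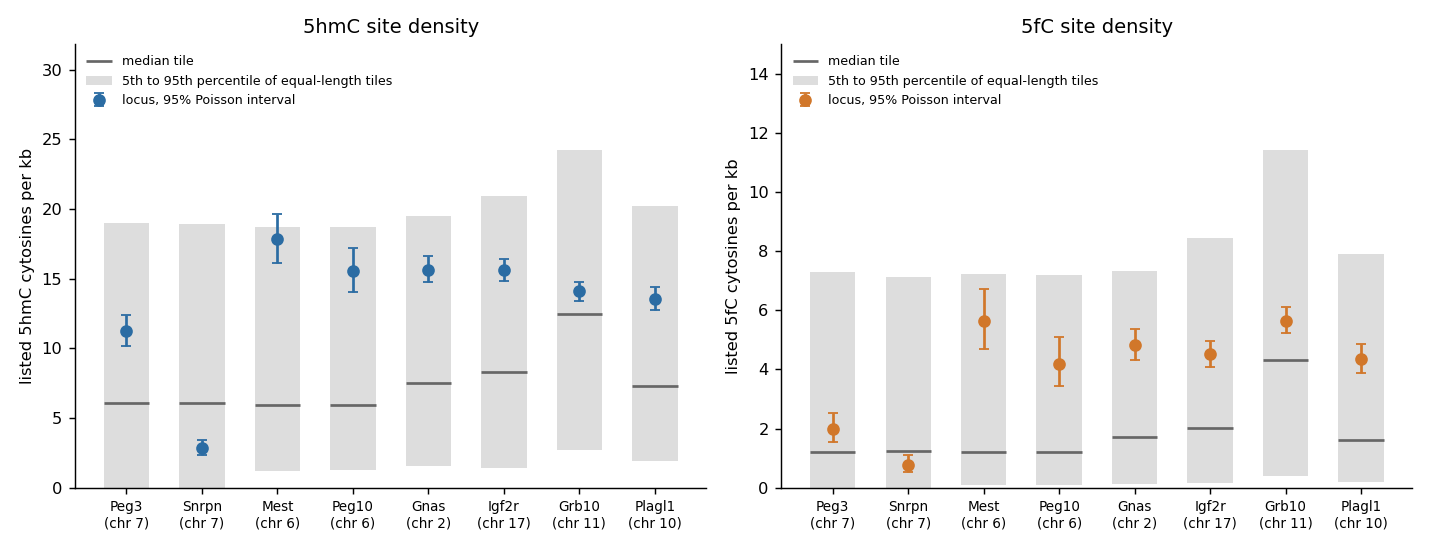
Listed cytosines per kb in each locus (points, with Poisson intervals of the count) for 5hmC and 5fC, over the median and the 5th to 95th percentile of tiles of the same length on the same chromosome (line and grey bar). Mest, at 17.8 5hmC sites per kb, stands nearest the upper end of its bar, and Snrpn, at 2.88, is the only locus below its median tile.

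Among the paternally expressed genes, Mest, which encodes a protein of the alpha/beta hydrolase fold, was the most densely marked at the given bounds. With bounds moved by 5 kb its 5hmC density over the own chromosome did not exceed that of Peg10. It was 1.76 against 1.82 outward and 2.40 against 2.42 inward. The 22 kb of Mest (chr6:30680001-30702000) held 392 5hmC sites with 4308 reads and 124 5fC sites with 1609 reads. Its 5hmC density was above that of 93.3% of equal-length tiles of chromosome 6, and its 5fC density above 89.8%. The 5hmC sites were most crowded at 30683001-30684000, with 43 sites of any dinucleotide and 19 listed CG dyads. That bin holds the upstream start. A dyad is the 2 cytosines of a CG and its complement. The 5fC sites peaked elsewhere, at 30692001-30693000, where 29 of them carried 492 reads beside 36 5hmC sites with 533 reads. The deepest cytosines of the locus lay in these same bins, at 30683821 on the minus strand for 5hmC (66 reads, beside 5 of 5fC) and at 30692629 on the plus strand for 5fC (56 reads, beside 45 of 5hmC).

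The Mest starts differed from each other. Within 1 kb of the upstream start (30683506) lay 74 5hmC and 25 5fC sites, and within 1 kb of the main start (30688050) 27 5hmC and 0 5fC sites. Within the 300 bases of sequence, 6 of 8 CGs were listed for 5hmC with up to 22 reads at the upstream start. At the main start it was 4 of 17, with up to 6 reads at a cytosine. The main start therefore had marks, but shallow ones and without listed 5fC, and cytosines that go unlisted may still have had reads.

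Peg10, a gene derived from a retrotransposon and needed in the placenta, had 389 5hmC and 105 5fC sites in 25 kb (chr6:4690001-4715000). The adjacent bins from 4704001 to 4706000 carried 52 and 56 5hmC sites and 20 and 19 5fC sites. By sites both marks thus had their peak in the same 2 kb. Outside it no bin of Peg10 reached 30 5hmC sites. By reads the fullest 5fC bin was 4691001-4692000, with 300 5fC reads, against 235 and 185 in the adjacent bins. The deepest 5hmC cytosine of the locus, at 4691164 on the minus strand, had 93 reads of 5hmC and 27 of 5fC, and the deepest for 5fC, at 4712818 on the plus strand, had 72 reads.

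Plagl1, a zinc finger transcription factor also called Zac1, had 1017 5hmC and 326 5fC sites in 75 kb (chr10:12780001-12855000). Its bin at 12847001-12848000 was the fullest 1 kb of all 8 loci for 5hmC, with 59 sites and 792 reads, and it held 33 5fC sites with 665 reads. In that bin the plus-strand cytosine of the CG at 12847047 was the deepest of the locus for both marks, with 101 5hmC and 105 5fC reads, while its partner on the minus strand was listed for neither. The peak of Plagl1 was therefore shared by the marks down to the base.

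Peg3, another zinc finger protein of paternal expression, had few 5fC reads for its 5hmC. Its 35 kb (chr7:6655001-6690000) held 393 5hmC sites, 1.52 times the density of chromosome 7, but 70 5fC sites, 0.909 times that density (0.709 to 1.15). The 5fC density depended on the setting: it was 0.545 (0.356 to 0.798) with only sites of at least 10 reads, but 1.04 (0.794 to 1.34) with CG sites alone, and 1.05 and 1.02 with the bounds moved outward and inward by 5 kb. Both marks were gathered at 6660001-6661000 (48 5hmC and 19 5fC sites) and 6663001-6664000 (55 and 11), both far downstream of the placed start at 6683130. In the 300 bases of sequence at that start few CGs were listed: 3 of 13 for 5hmC, with up to 7 reads, and 1 for 5fC with 5 reads. Within 2 kb of the start there were 11.75 5hmC and 1.5 5fC sites per kb, beside 11.2 and 2.0 over the locus. The deepest cytosines were at 6675784 on the minus strand for 5hmC (94 reads, beside 26 of 5fC) and at 6663461 on the plus strand for 5fC (58 reads).

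Snrpn, which encodes a protein of the splicing machinery and is expressed from the paternal copy, was the poorest locus. In 40 kb (chr7:67120001-67160000) there were 115 5hmC sites with 1349 reads and 31 5fC sites with 453 reads. Relative to chromosome 7 the densities were 0.389 and 0.352 (0.239 to 0.500 for 5fC). No bin of 1 kb reached 10 5hmC sites, and the fullest, 67144001-67145000, had 9 with 127 reads. A stretch of 2302 bases (67150049-67152350) held no listed 5hmC. The median was 6 5hmC reads per site, the lowest of the 8 loci, beside 8 over the genome. The mean of 11.7 was raised by a few deep sites: the plus-strand CG cytosine at 67129955 alone held 90 reads, or 6.67% of those of the locus. For 5fC the deepest, at 67154332 on the plus strand, had 43 reads.

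**Figure D2:**
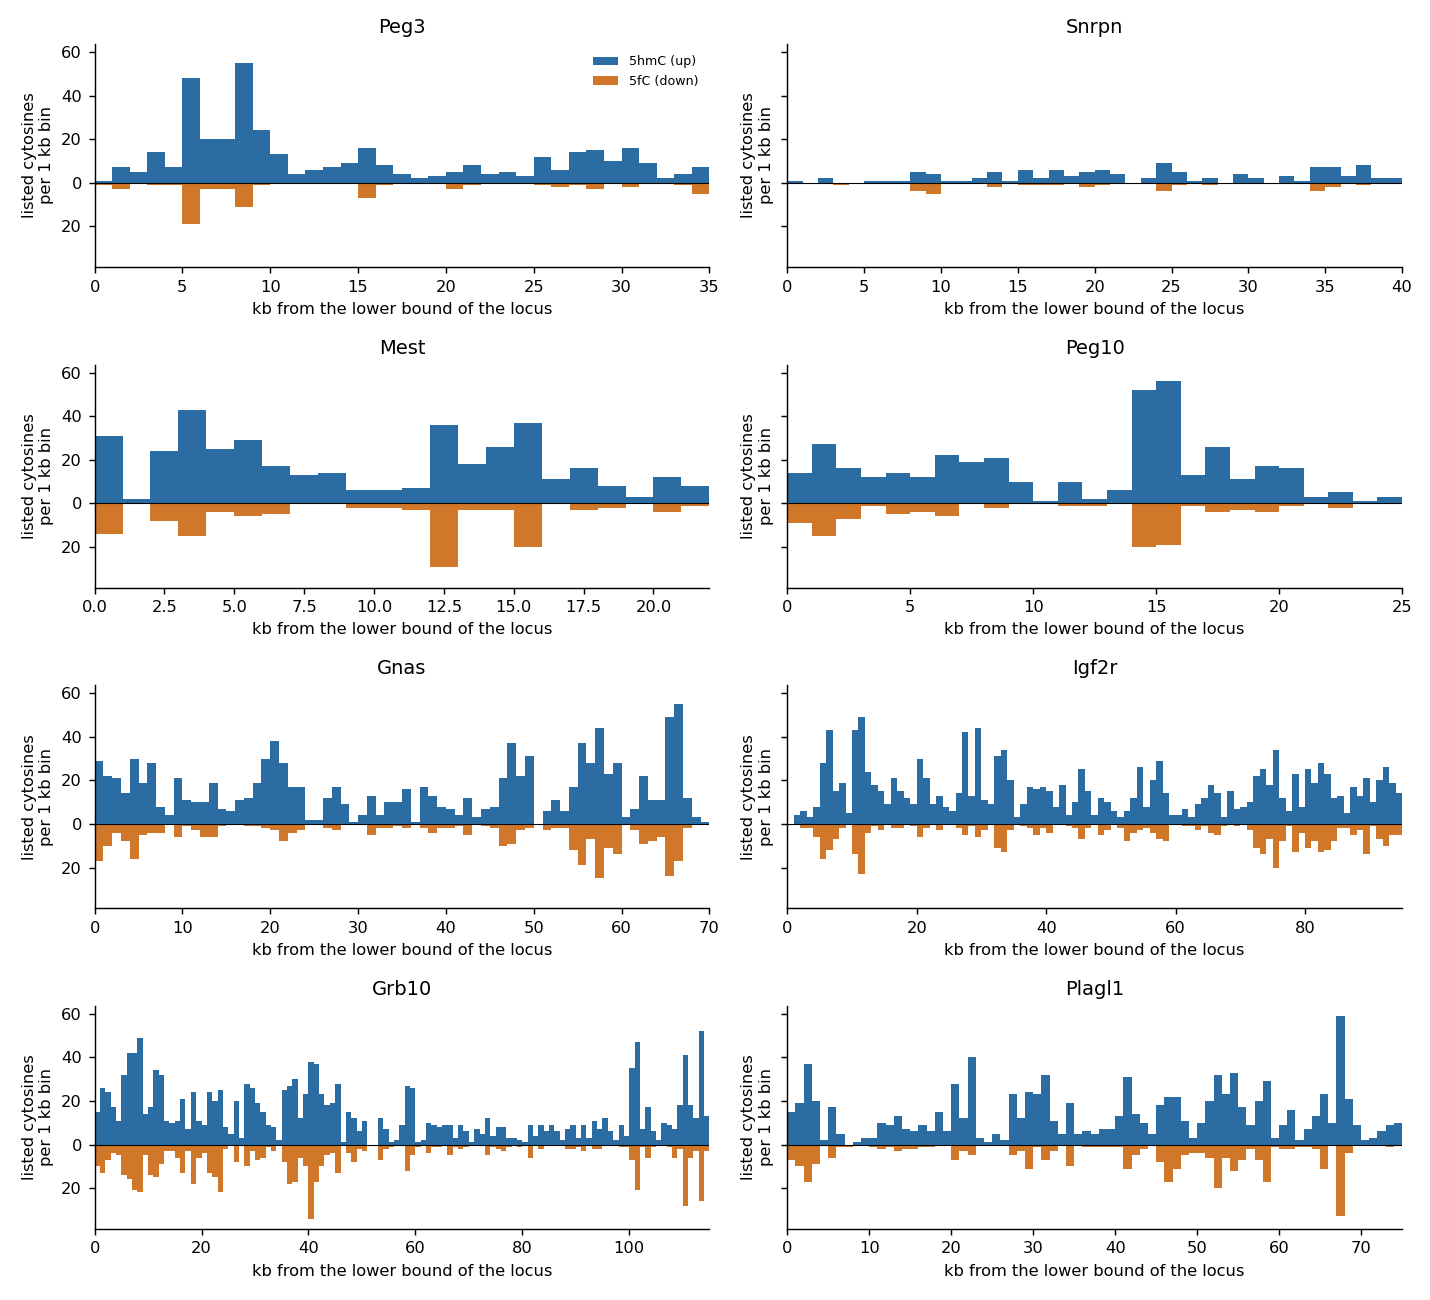
Listed cytosines per 1 kb bin along each locus, from its lower mm9 bound, with 5hmC drawn upward and 5fC downward. Peg10 and Peg3 have narrow shared peaks (56 and 55 5hmC sites at the fullest bins), Igf2r and Gnas several peaks, and no Snrpn bin exceeds 9.

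Of the genes expressed from the maternal copy in most tissues, Igf2r encodes the receptor that clears the growth factor IGF2, and the antisense transcript Airn starts within it. The locus (95 kb, chr17:12870001-12965000) held 1485 5hmC sites with 17455 reads and 428 5fC sites with 6676 reads. Its fullest bin, 12881001-12882000, had 49 5hmC and 23 5fC sites. At 12897001-12898000 and 12899001-12900000 there were 42 and 44 5hmC sites but 5 and 6 5fC sites. Dense 5hmC was thus not always matched by 5fC within the same gene. The deepest cytosines, both on the minus strand, were at 12881457 for 5hmC (99 reads) and at 12923046 for 5fC (121 reads, beside 44 of 5hmC).

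The Igf2r start itself was a gap next to a dense edge. In the 500 bases before the start at 12962572 there were 24 5hmC and 10 5fC sites, and in the 500 bases after it 0 of either mark. In the 300 bases of the sequence, which has 34 CGs, 7 were listed for 5hmC with up to 11 reads and 3 for 5fC with up to 12. All listed ones lay at least 106 bases before the start. No CG of this sequence was listed on both strands for either mark.

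Grb10 encodes an adaptor protein that restrains signalling from insulin and IGF receptors, and a neuronal promoter of the gene is used from the paternal copy. Its locus (115 kb, chr11:11825001-11940000) held the most sites, 1621 for 5hmC and 649 for 5fC, and the most reads, 27663 and 12089. Chromosome 11 was dense as a whole, at 12.7 5hmC sites per kb, so the locus exceeded its chromosome only 1.11 times for 5hmC and 1.17 times for 5fC. Against all nuclear chromosomes these figures were 1.75 and 2.33. Reads per 5hmC site were also high, 17.1 in the locus and 15.8 on the chromosome. The fullest bin for 5hmC was 11938001-11939000, with 52 sites and 749 reads beside 26 5fC sites, while 11935001-11936000 had the most 5hmC reads, 1047 at 41 sites. The most CG dyads, 33, were in 11926001-11927000, with 47 sites and 380 reads. Toward the other end the bins from 11832001 to 11834000 had 42 and 49 5hmC sites, and at 11865001-11866000 there were 38 5hmC sites with 34 5fC sites. The deepest cytosines of all 8 loci were here, both on the minus strand: 11868008 for 5hmC (180 reads, beside 73 of 5fC) and 11862812 for 5fC (167 reads, beside 57 of 5hmC). A stretch of 3134 bases (11875152-11878285) held no listed 5hmC.

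The downstream Grb10 start at 11927974 had every CG of its sequence listed for 5hmC. Of the 9 CGs, 5 were listed on both strands, 4 held 5fC, and the deepest cytosine had 58 5hmC reads. At the CG 37 bases before the start the strands had 48 and 21 5hmC reads and 24 and 7 5fC reads, so both marks were listed on both strands. This sequence had 288 5hmC reads in all, beside 108 at the Mest upstream start, 45 at Igf2r, 41 at Gnas, 24 at the Mest main start and 15 at Peg3.

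Gnas encodes the stimulatory G protein alpha subunit and has overlapping transcripts of maternal, paternal and biallelic expression. In its 70 kb (chr2:174105001-174175000) lay 1096 5hmC sites with 12020 reads and 337 5fC sites with 4837 reads. The fullest bin for 5hmC was 174171001-174172000, with 55 sites and 693 reads beside 17 5fC sites. The deepest cytosines were 174128187 on the minus strand for 5hmC (88 reads) and 174106604 on the plus strand for 5fC (106 reads, beside 52 of 5hmC). Other 5hmC was crowded but shallow. The bin 174125001-174126000 had 38 5hmC sites of any dinucleotide and 30 CG dyads, the most dyads in the locus. Yet it had 204 5hmC reads (5.37 per site) and 3 5fC sites with 22 reads. The bin before it had 30 sites with 152 reads, and 174154001-174155000 had 31 sites with 131 reads. By contrast, 174162001-174163000 had 44 5hmC sites with 735 reads and 25 5fC sites with 471 reads. A stretch of 1699 bases with no listed 5hmC (174154913-174156611) begins within the last of the shallow bins. At the most upstream start, 174109821, 4 of 16 CGs were listed for 5hmC and 0 for 5fC, while the 500 bases from 1000 to 500 before it held 21 5hmC and 14 5fC sites.

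**Figure D3:**
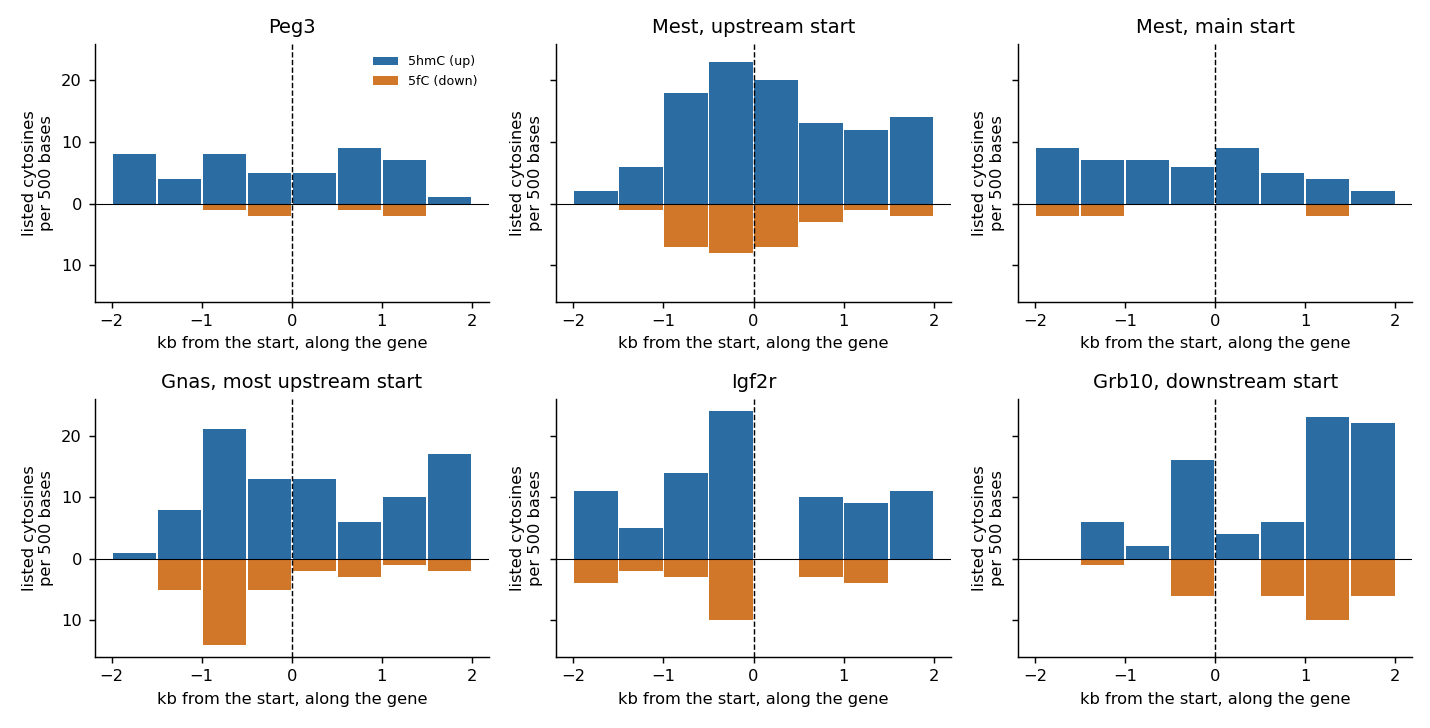
Listed cytosines per 500 bases within 2 kb of the 6 placed starts, along the direction of the gene, with 5hmC upward and 5fC downward. The Mest upstream start has its maximum at the start (23 and 20 sites on either side), Igf2r drops from 24 to 0 across the start, and the Mest main start has no 5fC within 1 kb.

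Over the 6 starts together, 33 of 97 CGs (34.0%, interval 25.4 to 43.9%) were listed for 5hmC and 10 (10.3%, 5.70 to 17.9%) for 5fC. Site density within 2 kb was 19.0 per kb for 5hmC and 5.33 per kb for 5fC. Since only starts with listed cytosines could be placed and none were placed outside the loci, these values have no background and describe these starts alone. The hexamer TGCCGC bound by ZFP57 (searched with its reverse complement GCGGCA) occurred in 5 of the 16 member sequences and in 11.7% of 32544 distinct promoter sequences of the table: both closely spaced Mest main starts, 1 of Snrpn, 1 of Plagl1 and the upstream Grb10 sequence. Of these only the Mest main sequence could be placed. It has 2 hexamers: the CG of the one 241 bases before the start was listed for 5hmC on both strands with 5 reads each, the one 66 bases before it was not listed, and neither had 5fC. A match is a description of the letters and not a site of binding. By median the member sequences were also richer in CG than promoters at large, with 16.5 against 7.0 per sequence and a range of 2 to 45. The Snrpn sequences went the other way, with 2, 3, 4 and 7. The 16 sequences come from 7 genes, some with several sequences, so they are not separate members.

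The balance of the marks was close to that of the genome over the 8 loci. Reads of 5fC per read of 5hmC, divided by the same ratio over all nuclear chromosomes, came to 1.04 (1.03 to 1.05). Single loci ran from 0.491 (0.454 to 0.531) at Peg3 to 1.20 (1.16 to 1.23) at Plagl1. The others were Snrpn at 0.867 (0.780 to 0.964), Peg10 at 0.894 (0.843 to 0.948), Mest at 0.964 (0.911 to 1.02), Igf2r at 0.988 (0.960 to 1.02), Gnas at 1.04 (1.00 to 1.07) and Grb10 at 1.13 (1.10 to 1.15). Grb10 matched its own chromosome, whose ratio was 1.13, while Plagl1 lay above chromosome 10 at 0.981 and Peg3 below chromosome 7 at 0.970. Of the equal-length tiles of its chromosome with at least 100 5hmC reads, 91.2% had a lower ratio than Plagl1, and 20.0% a lower ratio than Peg3. Low ratios as at Peg3 were thus not rare among tiles of chromosome 7. Snrpn, Peg10, Mest and Igf2r, though below 1, had higher ratios than 56.5, 65.6, 72.2 and 67.2% of the tiles of their chromosomes. Bins with much 5hmC and no 5fC were about as frequent as elsewhere: 16 of 254 bins with at least 10 5hmC sites (6.30%), against 5.66% over the genome. The read ratios of single loci moved with their bounds: moved inward by 5 kb, that of Mest was 1.24 (1.16 to 1.34).

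**Figure D4:**
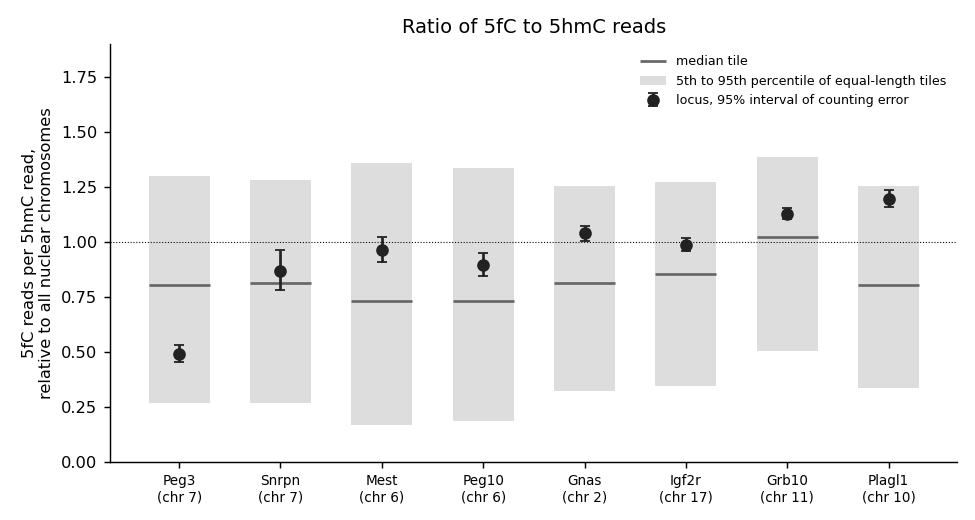
Ratio of 5fC to 5hmC reads in each locus relative to all nuclear chromosomes (points, with intervals of counting error; dotted line at 1), over the median and the 5th to 95th percentile of equal-length tiles of the same chromosome. Peg3 at 0.491 is the lowest and the only locus below its median tile, and Plagl1 at 1.20 lies highest.

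By base and strand the marks were shared about as often as over the genome. Of the 2070 5fC cytosines, 1569 (75.8%, interval 73.9 to 77.6%) carried 5hmC at the identical position and strand, against 76.3% over the nuclear chromosomes. Loci ranged from 70.2% at Mest to 80.0% at Peg3, with intervals that all held the value of the own chromosome. Counted by dyad, 90.5% of 5fC dyads (88.8 to 92.0%) also held 5hmC on some strand, an interval below the 92.8% of the genome. The intervals of Mest (85.0%, 75.6 to 91.2%) and Gnas (86.4%, 81.2 to 90.3%) lay below that value, and those of the other loci held it. In the other direction 33.0% of 5hmC dyads held 5fC, beside 31.8% over the genome, with a range from 18.8% at Peg3 to 45.8% at Grb10. Grb10 had 0.400 5fC sites per 5hmC site, beside 0.382 on chromosome 11 and 0.300 over the genome. Peg3 had 0.178, beside 0.297 on chromosome 7. Where each mark was listed on 1 strand of a dyad, it was the same strand in 362 of 439 dyads (82.5%), beside 79.8% over the genome. Cytosines with both marks were the deeper ones, with a median of 12 to 20 5hmC reads by locus against 6 to 8 at those with 5hmC alone, so bases listed for both marks were also those with more reads.

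Both strands of a CG were listed for 5hmC in 1368 of 3548 dyads (38.6%, interval 37.0 to 40.2%), beside 39.6% genome-wide, and for 5fC in 268 of 1294 (20.7%, 18.6 to 23.0%), beside 20.3%. By locus the 5hmC share was 48.2% at Grb10, 39.6% at Igf2r and 39.3% at Plagl1, each near its chromosome (46.6, 39.9 and 39.5%). It was lower at Peg3 (30.6%, interval 25.3 to 36.5%), Peg10 (31.6%, 25.9 to 37.9%) and Gnas (33.3%, 29.8 to 37.1%), whose intervals lie below the 39.1, 38.8 and 39.4% of their chromosomes. The intervals of Mest (33.5%, 27.6 to 39.99%) and Snrpn (28.4%, 19.4 to 39.5%) include their chromosomes' values. These shares move with the least number of reads: with at least 10 reads per site they were 13.5% at Peg3, 15.6% at Mest and 24.4% at Igf2r, and 23.8% over the genome. The mean 5hmC reads per site were below those of the chromosome in 7 of the 8 loci, all but Grb10, which includes Igf2r and Plagl1. The part of depth in the shares was not tested. For 5fC the interval of each locus included the value of its chromosome, and the shares ran from 9.09% at Peg3 (5 of 55 dyads) to 24.4% at Igf2r (62 of 254). They too moved by over 1.5 times: with at least 10 reads to 4.76% at Peg3, 6.0% at Mest and 15.7% at Igf2r, with at least 5 reads to 9.52% at Snrpn, and with inward bounds to 9.76% at Peg10.

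**Figure D5:**
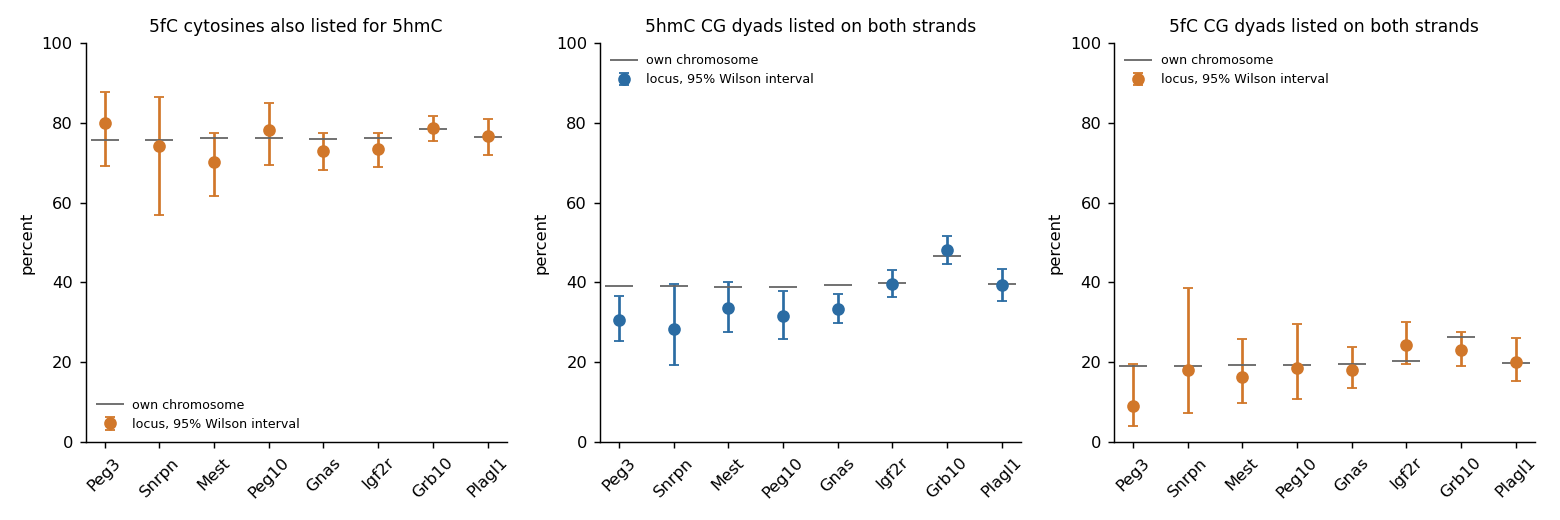
Shares per locus (points, with Wilson intervals) beside the value of the whole own chromosome (dashes): 5fC cytosines also listed for 5hmC, and CG dyads listed on both strands for 5hmC and for 5fC. Overlap lies between 70.2 and 80.0% throughout, and the 5hmC share on both strands runs from 28.4% at Snrpn to 48.2% at Grb10.

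Most listed cytosines were in CG. The CG share of 5hmC sites ran from 72.7% at Grb10 to 84.7% at Peg3 (interval 80.8 to 88.0%), where chromosome 7 had 76.1%. Outside CG the loci held 1592 5hmC and 508 5fC cytosines, of which 67.1% and 61.8% lay 20 to 23 bases before the cytosine of a CG dyad listed for the same mark, on either strand of the dyad. Over the genome these shares were 62.2% and 56.9%. The part of this spacing in the non-CG counts was not tested.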

How the data were processed

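The authors deposited 1 table for each mark, with a raw, pooled count of reads and the dinucleotide and strand for every cytosine in it. The submitters' processing notes name CASAVA, bcl2fastq, cutadapt, Bowtie and the build mm9, without versions. Not given in the sources used here are the way 5fC was told from 5hmC, the step from cut ends to cytosines, the rule for listing a site, and the set of libraries behind each table. The labels of both 5hmC cultures name the same table, which was treated as that of passage 14. The least listed count was 2. The tables hold 264008048 5hmC reads (median 8 per nuclear site) and 102305049 5fC reads (median 12), and each locus has fewer sites, and so less precision, for 5fC.

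The members were chosen with earlier results of these data known, and so were the lists. Sites, reads, dyads and shared bases were counted within the given bounds, each of the 8 loci beside the rest of its chromosome and equal-length tiles of it. Shares have Wilson intervals and densities Poisson intervals. Ratios of reads have intervals of counting error. No p-values are given, since sites, bins and loci are not replicates. The text names all 8 loci and, for each, the cytosine with the most reads of each mark and the 1 kb bin with the most listed 5hmC dyads. Of the other genes of these loci that were listed for naming, those with a promoter in the table could not be placed, except Usp29, whose sequence overlaps that of Peg3. Other bins were chosen after their values were seen. Alternatives were a minimum of 5 or of 10 reads, CG sites alone, 5hmC reads thinned to 38.8%, bounds moved by 5 kb, sites above 1000 reads left out, all nuclear chromosomes as the reference, overlap by either strand, bins of 500 bases and 1 kb around starts. The counting and placing functions were tested on 20000 simulated dyads and passed 4 of 4 checks. Python 3.11.15 with numpy 2.4.6, pandas 2.3.3 and scipy 1.17.1 was used.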

Additional observations from a re-analysis of the deposited data

How the results depend on the processing

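No paired analysis was possible because each mark has only a pooled count at a site, and leaving out each library was not run for the same reason. Of 304 alternative values of single loci, 221 moved by less than their counting interval, 81 moved by more and 2 crossed 1 from an interval that excluded it: the read ratio became 1.05 at Peg10 with bounds moved outward by 5 kb and 0.992 at Gnas with bounds moved inward. Among the other values, 6 densities or ratios crossed 1 from an interval that held it: Peg3 5fC density at 1.04 (CG alone), 1.05 (outward) and 1.02 (inward), the Mest ratio at 1.24 (inward) and 1.02 (thinned) and the Igf2r ratio at 1.00 (CG alone). The 221 include values that could move little or not at all. Leaving out sites above 1000 reads removed none of the 6508 5hmC and 2070 5fC sites of the loci. Thinning 5hmC left the 5fC densities and the 5fC shares on both strands as they were. For these settings the count of 221 says nothing about stability. For the 8 loci together, at least 5 reads per site gave an overlap of 71.1% and 5hmC on both strands in 34.1% of dyads. At least 10 reads gave an overlap of 61.4%, both strands in 25.7% (5hmC) and 15.4% (5fC) and a 5hmC density of 1.38, where the genome had 62.3, 23.8 and 15.7%. Overlap was 82.7% with CG sites alone and 90.5% by either strand. Thinning 5hmC gave an overlap of 68.0% and both strands in 33.0%. Inward bounds gave a 5fC density of 1.34 and a read ratio of 1.02. Against all nuclear chromosomes the densities were 1.69 and 1.79. Within 1 kb of the starts they were 21.5 5hmC and 6.75 5fC sites per kb, and of bins of 500 bases with at least 5 5hmC sites 17.8% held no 5fC, beside 18.9% over the genome. The cause of these shifts was not tested. The 5fC values of Snrpn and Peg3 rest on 31 and 70 sites.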
